A study of Mus musculus with 10 samples.

Results

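Fat cell transcripts were followed in 10 whole melanoma tumors of mice through 10 genes: Adipoq, Lep, Cfd, Retn, Plin1, Plin4, Cidec, Fabp4, Lpl and Pparg. The genes were picked by symbol as well-known adipocyte genes, by a rule that uses no measured value. All 10 were found among the 45706 genes of the count table, and all 10 were among the 14550 genes that passed the filter on low counts. These genes varied widely between tumors of the same group, and none passed the test in any of the 3 comparisons. Lpl and Pparg followed Adipoq less closely than the other members did.

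White adipocytes store triglyceride in a single large droplet coated by perilipins, release fatty acids from it on demand, and take fatty acids up from blood lipoproteins. They also secrete hormones (adipokines), and their identity depends on the nuclear receptor PPARγ. Mouse skin carries a layer of dermal fat above the subcutaneous tissue, so that a subcutaneous tumor grows close to adipocytes. In bulk RNA of whole tumors, fewer cells of a type and less RNA per cell cannot be told apart.

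Tumors of a Braf-driven melanoma line were collected 4 days after subcutaneous injection into C57BL/6 mice aged 8 weeks. The 4 Ptgs+/+ tumors were COX-competent. The 3 Ptgs-/- tumors came from cells lacking Ptgs1 and Ptgs2, the genes of COX-1 and COX-2, the enzymes that begin prostaglandin E2 synthesis, and 3 more Ptgs-/- tumors grew in mice depleted of NK cells with 200 µg of anti-NK1.1 (clone PK136) and 30 µg of anti-asialo GM1 on days 0 and 2, per the labels. The study's methods give another antibody schedule, and the study used mice of both sexes without a sex per tumor in the labels. The gene deletion was in the implanted cells alone, so host cells, fat included, carried intact Ptgs1 and Ptgs2 in all 3 groups. Of the labels' codes, EB042 is carried by Ptgs+/+ replicate 4 and Ptgs-/- replicate 3 and EB046 by the other 8 tumors, and the labels do not say what the code stands for.

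The 10 libraries held between 8150556 and 12839174 counts from the 3′ ends of transcripts. Levels are given as CPM, the counts of a gene scaled to the library total. Ptgs2 stood at 253 ± 110 CPM (SD, n = 4) in Ptgs+/+ tumors, 43.0 ± 27.6 CPM (SD, n = 3) in Ptgs-/- tumors and 44.8 ± 4.56 CPM (SD, n = 3) after NK cell depletion. Ptgs1 stood at 152 ± 17.5, 94.0 ± 15.0 and 96.5 ± 1.24 CPM in the same order. Ncr1, which encodes the NK cell receptor NKp46, had 20 to 77 counts in tumors of Ptgs-/- cells with NK cells present and 0 in all 3 libraries of NK cell-depleted mice, which allows up to 0.277 to 0.321 CPM per library. The pigment cell genes Tyr, Tyrp1 and Mlana were at or below 0.199 CPM in every tumor, so the labelled melanoma carried hardly any of these differentiation transcripts.

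Adipokine transcripts were very uneven between tumors. Adipoq, which encodes adiponectin (chromosome 16, 23146536 to 23158028, plus strand, GRCm38), stood at 106, 152, 406 and 374 CPM in Ptgs+/+ replicates 1 to 4, at 28.1, 146 and 375 CPM in Ptgs-/- replicates 1 to 3, and at 394, 168 and 348 CPM in those of NK cell-depleted mice. In each group some tumors were low and others high, and the 3 groups overlapped. Cfd, the gene of adipsin (complement factor D, chromosome 10, 79890853 to 79892655), stood at 762, 915, 3843 and 3498 CPM in Ptgs+/+ tumors, at 211, 1302 and 2751 CPM in Ptgs-/- tumors, and at 2890, 1331 and 2207 CPM after NK cell depletion. The same tumors were high as for Adipoq, with Ptgs+/+ replicates 3 and 4 well above replicates 1 and 2. Retn, the gene of resistin (chromosome 8, 3655770 to 3660110), stood at 20.2, 29.8, 71.4 and 106 CPM, at 4.29, 21.7 and 93.2 CPM, and at 108, 29.1 and 83.5 CPM in these groups. Its lowest tumor was again Ptgs-/- replicate 1. Lep, the gene of leptin (chromosome 6, 29060220 to 29073877), was scarcer, at 5.76, 8.76, 9.04 and 18.3 CPM in Ptgs+/+ tumors, 2.82, 8.38 and 13.7 CPM in Ptgs-/- tumors, and 22.7, 7.56 and 33.3 CPM after NK cell depletion. For Lep, 2 tumors of NK cell-depleted mice were above all others, and the third was within the range of both other groups.

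Lipid droplet genes had a similar order of tumors. Plin1, which encodes the perilipin that coats the adipocyte droplet and gates lipolysis (chromosome 7, 79720218 to 79732903, minus strand), stood at 11.6, 20.5, 44.7 and 52.8 CPM in Ptgs+/+ tumors, 2.94, 15.8 and 57.0 CPM in Ptgs-/- tumors, and 49.0, 19.2 and 45.3 CPM after NK cell depletion. Both the lowest and the highest Plin1 values of all tumors were in the Ptgs-/- group. Cidec, whose product fuses small droplets into large ones (chromosome 6, 113424634 to 113435760), stood at 32.4, 59.3, 177 and 120 CPM, at 6.63, 37.9 and 98.1 CPM, and at 100.05, 76.8 and 89.8 CPM. Tumors of NK cell-depleted mice were close to each other for Cidec, inside the range of Ptgs+/+ tumors. Plin4, another perilipin of adipocytes that muscle also makes (chromosome 17, 56100591 to 56109803), stood at 78.4, 110, 244 and 268 CPM, at 16.9, 100 and 183 CPM, and at 167, 79.7 and 199 CPM. Its groups overlapped too, and part of the gene lies over Hdgfl2 on the opposite strand, a gene with 2540 counts over all libraries. Whether the counting used strand is not given in the sources used here, and reads of the overlapping stretch are uncertain for that reason.

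The fatty acid handling genes departed from this order in single tumors. Fabp4, the gene of the fatty acid carrier aP2 (chromosome 3, 10204088 to 10208576), stood at 683, 834, 781 and 4077 CPM in Ptgs+/+ tumors, at 150 (1223 counts), 729 and 1587 CPM in Ptgs-/- tumors, and at 2181, 1060 and 2095 CPM after NK cell depletion. Ptgs+/+ replicate 4 stood far above the other Ptgs+/+ tumors, and replicate 3, high for Adipoq and Cfd, was low for Fabp4. Lpl, the gene of lipoprotein lipase, which frees fatty acids from lipoprotein triglyceride (chromosome 8, 68880491 to 68907448), stood at 219, 242, 545 and 665 CPM, at 509, 696 and 770 CPM, and at 922, 516 and 915 CPM. Lpl was lowest in Ptgs+/+ replicates 1 and 2, and Ptgs-/- replicate 1, the lowest tumor for 8 of the 10 genes, was within the range of both other groups or just below it. Fabp4, Lpl, Plin4 and Pparg are also used by other cells, among them macrophages, endothelium or muscle.

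Pparg, which encodes PPARγ (chromosome 6, 115360951 to 115490399), had the lowest mean of the 10 genes, 9.68 CPM over all tumors. It stood at 5.92, 6.08, 3.16 and 17.995 CPM in Ptgs+/+ tumors, 4.91, 7.76 and 10.4 CPM in Ptgs-/- tumors, and 16.8, 7.47 and 16.3 CPM after NK cell depletion. Ptgs+/+ replicate 3, the highest tumor for Adipoq, Cfd and Cidec, was the lowest for Pparg, with 36 counts. An antisense gene lies over part of Pparg in the annotation and has no row in the count table.

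**Figure D1:**
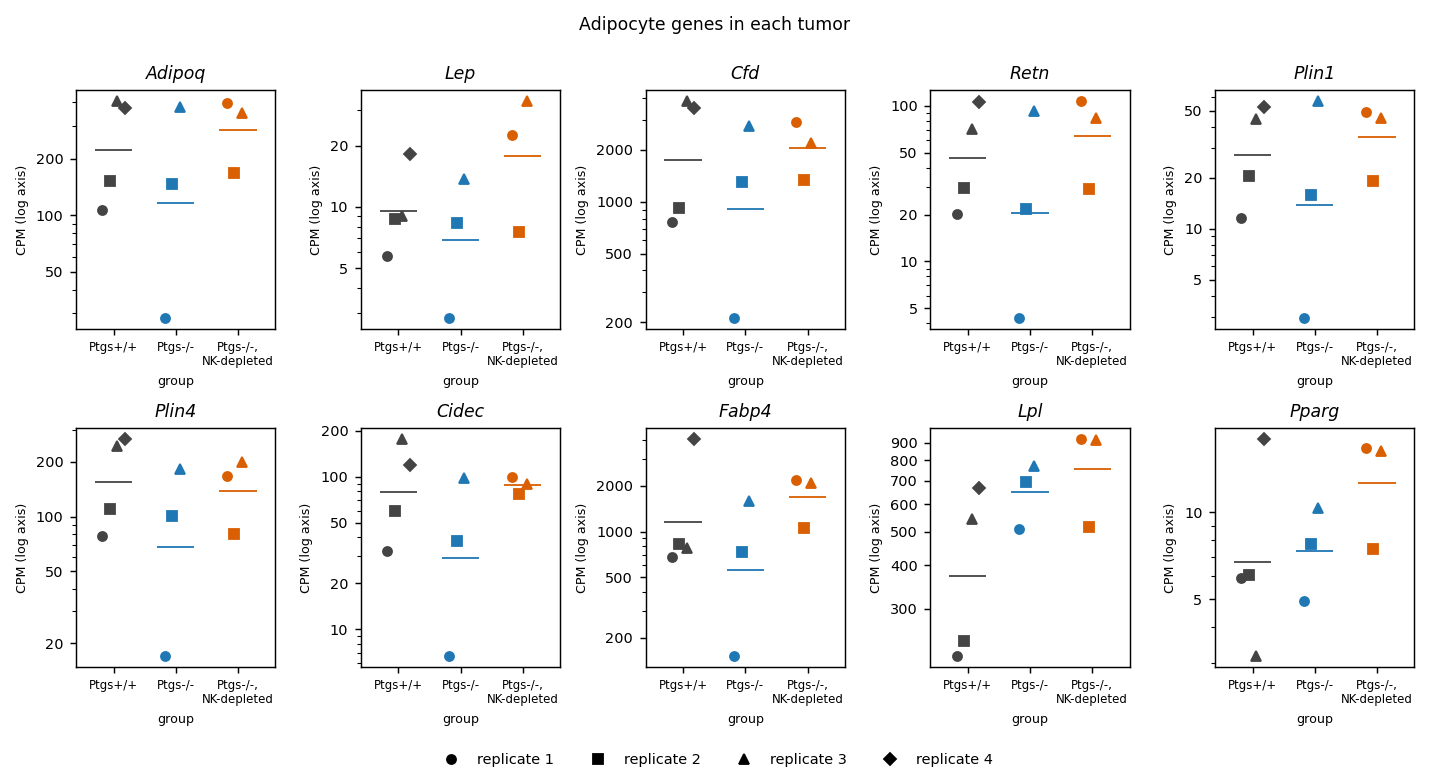
Level of each adipocyte gene (CPM, log axis) in every tumor by group, with the marker shape giving the replicate and the horizontal line the geometric mean of the group. Groups overlap in every panel, and Ptgs-/- replicate 1 (blue circle) is lowest in 8 of the 10 panels.

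Together the 10 genes took 0.193, 0.238, 0.612 and 0.920% of all counts in Ptgs+/+ tumors, 0.0936, 0.306 and 0.594% in Ptgs-/- tumors, and 0.685, 0.329 and 0.603% after NK cell depletion. The highest share was thus 9.83 times the lowest. Within Ptgs-/- tumors alone, the highest tumor exceeded the lowest 13.4 times for Adipoq, 19.4 times for Plin1, 21.7 times for Retn and 14.8 times for Cidec, but 1.51 times for Lpl. Group means, by contrast, differed at most 1.66 times for Adipoq, 1.498 times for Plin1 and 1.85 times for Retn. For all 10 genes the widest range inside a group exceeded that between group means, and for 8 of them the widest was in Ptgs-/- tumors. Averaging narrows the range of means, so most genes could show this contrast, and its share over all genes was not computed.

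The spread within groups was unusual among the genes measured. The pooled SD within groups, on the log2(CPM + 1) scale with 7 degrees of freedom, had a median of 1.23 over the 10 genes and of 0.22 over all 14550 genes tested. Among the 9174 genes with a mean level at or above that of Pparg it was 0.18. Retn stood at the 99.9th percentile of all genes tested, Adipoq at the 99.8th, Lep at the 99.0th, Pparg at the 98.2th and Lpl, the least variable member, at the 96.8th. The counts behind the extremes were not small. Adipoq had 229 counts in its lowest library and 4623 in its highest, Cfd 1717 and 43775, and Plin1, one of the sparsest, 24 and 625.

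Ptgs-/- replicate 1 was lowest for every member but Lpl and Pparg, and no single tumor was highest for most of them: Ptgs+/+ replicates 3 and 4 were highest for 3 genes each, the first tumor of NK cell-depleted mice for 2, and 2 other tumors for 1 each. In Ptgs-/- replicate 1 the summed level of 8 endothelial genes was also the lowest of all tumors, at 147 CPM against 243 to 433 CPM in the others, with every one of these genes above 0. The part of other host tissue in that tumor's low values was not tested. Summed skeletal muscle transcripts stood at 425 CPM there, above 126 and 313 CPM in the other Ptgs-/- tumors. The summed neutrophil genes (67.6 CPM) and keratinocyte genes (19.8 CPM) were also the lowest of all tumors there, and the summed macrophage genes (3968 CPM) the lowest of the Ptgs-/- tumors with NK cells.

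**Figure D2:**
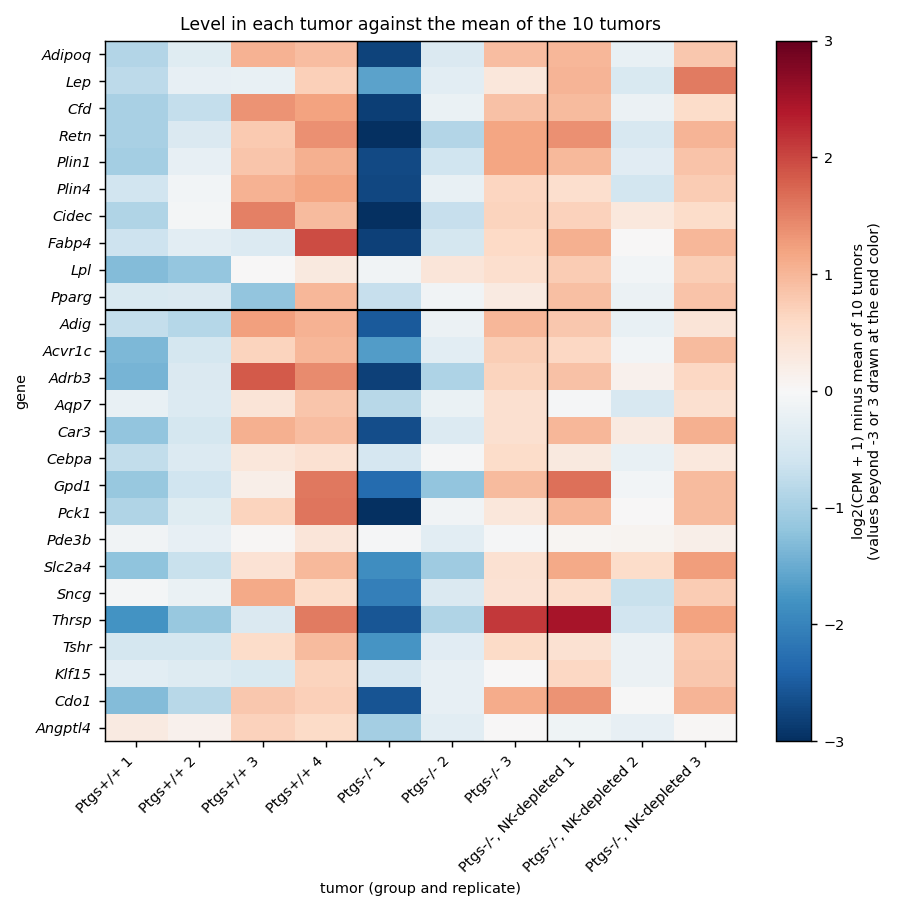
Log2(CPM + 1) of the 10 adipocyte genes (above the line) and of 16 further adipocyte markers (below it) in each tumor, minus the gene's mean over the 10 tumors. Most rows share 1 pattern, with Ptgs-/- replicate 1 lowest. Lpl and Pparg of the members, and Cebpa and Pde3b of the other markers, are lowest in another tumor. Klf15 and Angptl4 are lowest in Ptgs-/- replicate 1 but follow Adipoq less closely (r = 0.62 and 0.73).

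The first comparison asks whether loss of COX in the cancer cells changed these transcripts by day 4. None of the 10 genes was called in Ptgs-/- against Ptgs+/+ tumors by edgeR's quasi-likelihood test, with thresholds of 0.05 for the adjusted p and 1.5 for the log2 fold change in either direction, where 4.15% of all genes tested were called. At an adjusted p alone 0 of 10 passed (23.1% of all genes), at an unadjusted p under 0.05 also 0 (35.9%), and DESeq2 called 0 as well. The groups overlapped for all 10 genes, whereas 30.6% of all genes tested did not overlap. The fitted change was below 0 for 9 genes and above 0 for Lpl, with a median of -0.57 on the log2 scale beside -0.01 over all genes tested. For Adipoq it was -0.57 (SE 0.68, 95% interval -2.05 to 0.92, adjusted p = 0.59 by edgeR), for Cidec -1.09 (interval -2.58 to 0.41) and for Fabp4 -1.01 (interval -2.65 to 0.63). Lpl stood 0.60 higher (interval -0.18 to 1.38, adjusted p = 0.25 by edgeR), the narrowest interval of the 10. Apart from Lpl, each gene's interval reached past a 2-fold decrease, so a decrease of that size is not excluded for those genes. Without Ptgs-/- replicate 1 the median was -0.06, without Ptgs-/- replicate 3 it was -1.58, and without Ptgs+/+ replicate 4 it was -0.09, with 0 genes called each time.

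NK cell depletion was compared within Ptgs-/- tumors. With NK cells present, all 10 genes had a fitted level below that in NK cell-depleted mice, with a median of -0.79 beside -0.01 over all genes tested, but 0 of 10 were called by edgeR where 1.15% of all genes were. At an adjusted p alone 0 passed (1.44% of all genes), at an unadjusted p under 0.05 there was 1 (11.2%), DESeq2 called 0, and the groups overlapped for all 10 (17.6% of all genes did not). The 1 gene was Lep, at -1.36 (SE 0.58, interval -2.63 to -0.08, adjusted p = 0.41 by edgeR). For Adipoq the change was -0.76 (interval -2.34 to 0.81), for Pparg -0.83 (interval -1.99 to 0.33) and for Lpl -0.28 (interval -1.12 to 0.56). The median moved to -0.32 without Ptgs-/- replicate 1 and to -1.83 without Ptgs-/- replicate 3. Skeletal muscle transcripts differed strongly between these groups (126 to 425 CPM summed with NK cells, 2605 to 6173 CPM without), and their part in the values of Lpl and Plin4, which muscle also makes, was not tested.

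Ptgs-/- tumors of NK cell-depleted mice were set against Ptgs+/+ tumors last. This comparison shares its groups with the other 2 and is not independent of them. Again 0 of 10 genes were called by edgeR (2.71% of all genes), 0 passed at an adjusted p alone (12.5%), 1 passed at an unadjusted p under 0.05 (27%), DESeq2 called 0, and no gene had groups that did not overlap (27.1% of all genes). Fitted changes were above 0 for 7 genes and below 0 for Plin4, Cidec and Cfd, with a median of 0.20 beside -0.01 over all genes tested. The gene at an unadjusted p under 0.05 was Lpl, 0.88 higher after depletion (SE 0.35, interval 0.10 to 1.66, adjusted p = 0.13 by edgeR). Without Ptgs+/+ replicate 4, the median was 0.67 and both Lpl (1.18, adjusted p = 0.0499 by edgeR) and Pparg (1.37, adjusted p = 0.039) passed the adjusted p but not the fold threshold. Adipoq, at 0.20 (interval -1.26 to 1.66), and Plin1, at 0.20 (interval -1.36 to 1.75), had intervals that reach well to both sides of 0.

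**Figure D3:**
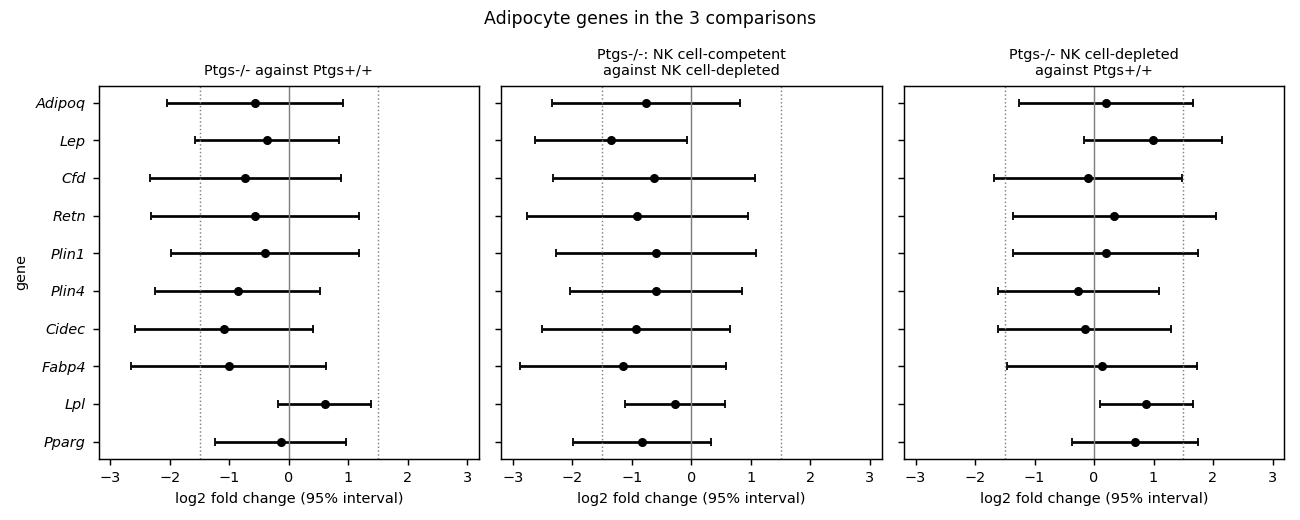
Log2 fold change of each adipocyte gene with its 95% interval in the 3 comparisons (edgeR), with a solid line at 0 and dotted lines at the fold threshold of 1.5. All intervals include 0 except those of Lep in the second panel and Lpl in the third, and neither gene passed after adjustment over all genes.

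The codes in the labels touch these values. Both tumors with the code EB042 were rich in fat transcripts, and no tumor of NK cell-depleted mice carries it. Among tumors with the code EB046 alone, the median of the 10 genes was -1.30 for Ptgs-/- against Ptgs+/+, -1.83 for Ptgs-/- against NK cell-depleted and 0.68 for NK cell-depleted against Ptgs+/+. With the code as a term in the fit, the medians were -1.01, -1.60 and 0.83. No gene was called either way. EB042 holds 1 tumor of each of 2 groups, so it gives no test of its own.

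Across the 10 tumors the levels of most members went together, as the plots against Adipoq show. Pearson's r with Adipoq on the log2(CPM + 1) scale was 0.99 for Plin1, 0.99 for Cfd, 0.98 for Retn, 0.97 for Plin4 and 0.97 for Cidec (n = 10 tumors), and the median over all genes tested was -0.01. It was 0.88 for Fabp4 and 0.84 for Lep, and 0.50 for Pparg and 0.49 for Lpl. Spearman's rho was 0.83 for Plin1, 0.95 for Cfd, 0.85 for Retn, 0.36 for Pparg and 0.62 for Lpl. Leaving out Ptgs-/- replicate 1 and Ptgs+/+ replicate 1, the tumors farthest from the median of Adipoq, r was 0.98 for Plin1, 0.95 for Cfd, 0.63 for Fabp4, 0.66 for Lep, 0.35 for Pparg and 0.60 for Lpl. These values describe 10 tumors whose genes share each library and its depth, and no test is attached to them.

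**Figure D4:**
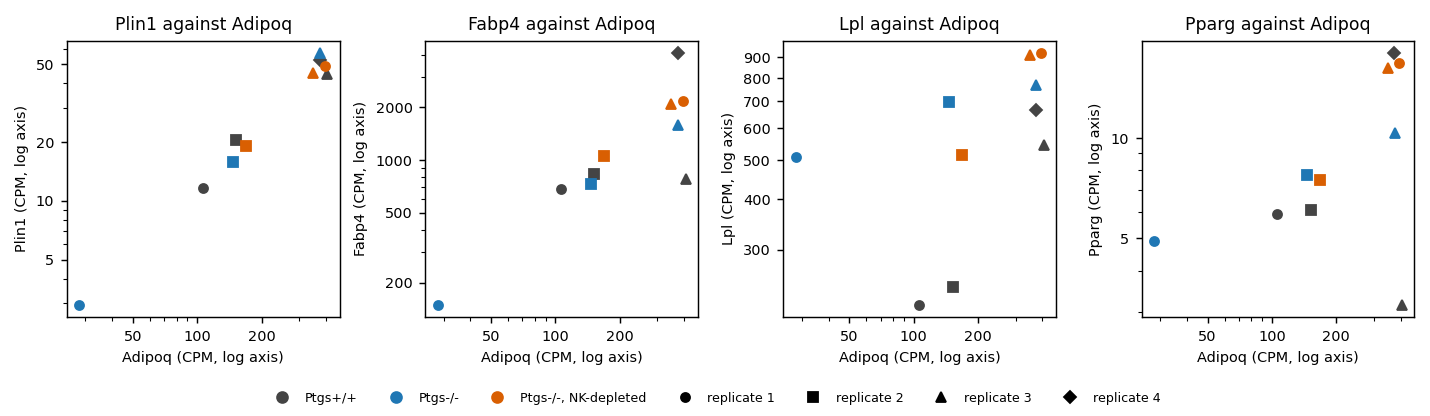
Plin1, Fabp4, Lpl and Pparg against Adipoq in each tumor (CPM, both axes log), with color for the group and shape for the replicate. Plin1 lies along 1 line (r = 0.99), Fabp4 departs from it in Ptgs+/+ replicates 3 and 4, and Lpl lies higher in the Ptgs-/- tumors, with and without NK cells, than in Ptgs+/+ tumors of like Adipoq level.

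Pparg was closer to Lep (r = 0.81) and Fabp4 (r = 0.79) than to Adipoq. Over all 45 pairs of members the median r was 0.85, with a range of 0.34 to 0.99. Over the 15 pairs among Adipoq, Plin1, Cidec, Lep, Cfd and Retn, the members most restricted to fat, it was 0.96, with 0.73 the lowest. An r with Adipoq over 0.9 was rare among the genes tested. It was found for 106 genes besides Adipoq (0.729%), Plin1, Cfd, Retn, Plin4 and Cidec among them. Outside the lists used here the closest were Slc24a3, Gnai1, Apoc1, Smoc1, C130074G19Rik and Gstz1, each at an r of 0.98. Slc24a3, a sodium, potassium and calcium exchanger, ranged from 0.982 to 10.8 CPM and Gstz1, an enzyme of tyrosine breakdown, from 15.2 to 57.2 CPM.

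Ratios to Adipoq within a tumor show where Lpl and Fabp4 parted from Cfd and Plin1. The ratio of Cfd to Adipoq stayed between 6.01 and 9.47 in all tumors, and that of Plin1 to Adipoq between 0.105 and 0.152. The ratio of Lpl to Adipoq was 2.07, 1.59, 1.34 and 1.78 in Ptgs+/+ tumors, 18.1, 4.76 and 2.05 in Ptgs-/- tumors, and 2.34, 3.06 and 2.63 after NK cell depletion. Every tumor of NK cell-depleted mice was above every Ptgs+/+ tumor, and of the Ptgs-/- tumors replicate 3 was just below the highest Ptgs+/+ tumor. The share of genes with such a separation of ratios was not computed. The ratio of Fabp4 to Adipoq was lowest in Ptgs+/+ replicate 3, at 1.92, highest in Ptgs+/+ replicate 4, at 10.9, and between 4.23 and 6.44 in the other tumors.

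To compare the groups at a like content of fat transcripts, the mean log2(CPM + 1) of those 6 genes was added to the edgeR fit as a term. This fit was chosen after the values had been seen. With it, Lpl was 1.10 higher in Ptgs-/- than in Ptgs+/+ tumors (SE 0.27, interval 0.50 to 1.69, adjusted p = 0.014), where 23.4% of all genes tested passed at an adjusted p alone, and 0.80 higher after NK cell depletion than in Ptgs+/+ tumors (SE 0.24, interval 0.28 to 1.32, adjusted p = 0.049), where 12.5% passed. Plin4 was lower by the same measure after NK cell depletion, at -0.55 against Ptgs+/+ tumors (SE 0.14, interval -0.86 to -0.25, adjusted p = 0.025). None of these changes reached the fold threshold. Leaving out each tumor in turn, the first Lpl value ranged from 0.88 to 1.69 and lost the threshold without Ptgs+/+ replicate 1 (adjusted p = 0.076), the second ranged from 0.68 to 0.9999 and passed in 4 of 10 fits, and the Plin4 value ranged from -0.64 to -0.49 and passed in 6 of 10. Between Ptgs-/- tumors with and without NK cells Lpl differed by 0.30 (interval -0.37 to 0.96, adjusted p = 0.69). Fabp4 and Pparg passed in none of the 3 comparisons.

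Macrophages and muscle also make Lpl. The summed level of 12 macrophage genes was 2556 to 2923 CPM in Ptgs+/+ tumors, 3968 to 5345 CPM in Ptgs-/- tumors and 3713 to 3954 CPM after NK cell depletion, and 8 of the 12 passed an adjusted p alone as higher in Ptgs-/- than in Ptgs+/+ tumors, where 12.1% of all genes tested did. Between Ptgs-/- tumors with and without NK cells, 10 of the 12 were higher with NK cells and 0 passed, while Lpl was lower with NK cells. C1qa is a complement gene of tissue macrophages and the most abundant of the 12. It was 0.85 higher in Ptgs-/- than in Ptgs+/+ tumors (SE 0.14, adjusted p = 0.0018 by edgeR). Within Ptgs-/- tumors it was 0.39 higher with NK cells than without and did not pass (adjusted p = 0.36 by edgeR). Skeletal muscle transcripts, led by the actin gene Acta1 and the myosin gene Myh4, summed to 23.9 to 187 CPM in Ptgs+/+ tumors against 126 to 425 CPM and 2605 to 6173 CPM in the other groups. Against Ptgs+/+ tumors, 5 of the 11 tested genes were called higher in Ptgs-/- tumors (4.15% of all genes were called in either direction) and 11 of 11 after NK cell depletion (2.71%). In Ptgs-/- tumors, 10 of 11 were called lower with NK cells than without (1.15% of all genes were called). The part of either tissue in the Lpl values was not tested.

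The adipocyte genes whose levels went together can be set beside the sequence before their starts. RefSeq windows of 250 bases before each annotated start (GRCm38.p6) were given for 8 of the 10 members, without Fabp4 and Lpl. Shown are those of Adipoq, Cfd and Retn, the members with a single window that ends right before the annotated start of the gene. Capitals mark the letters CCAAT on either strand, and no other motif searched was found in the 3 windows.

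Adipoq, chr16:23146286-23146535, plus strand: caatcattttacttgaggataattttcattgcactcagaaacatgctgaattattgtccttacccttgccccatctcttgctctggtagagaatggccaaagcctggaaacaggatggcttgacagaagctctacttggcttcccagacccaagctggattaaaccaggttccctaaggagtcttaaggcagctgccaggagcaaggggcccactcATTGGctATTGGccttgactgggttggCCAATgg
Cfd, chr10:79890603-79890852, plus strand: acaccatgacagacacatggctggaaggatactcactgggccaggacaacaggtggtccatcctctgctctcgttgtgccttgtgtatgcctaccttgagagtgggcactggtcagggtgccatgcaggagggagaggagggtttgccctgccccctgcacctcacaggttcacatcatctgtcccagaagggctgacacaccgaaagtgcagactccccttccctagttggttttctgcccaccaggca
Retn, chr8:3655520-3655769, plus strand: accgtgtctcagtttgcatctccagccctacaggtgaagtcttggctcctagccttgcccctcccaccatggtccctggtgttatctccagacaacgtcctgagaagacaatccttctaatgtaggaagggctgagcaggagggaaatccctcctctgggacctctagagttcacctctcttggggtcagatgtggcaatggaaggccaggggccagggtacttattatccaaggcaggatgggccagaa

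C/EBP proteins and the PPARγ dimer with RXR are the best known activators of adipocyte genes. The letters TTGCNNAA, a C/EBP motif, were searched on either strand and found in windows of Cidec, Lep, Plin1 and Pparg. These were 4 of the 11 windows of the members, beside 9.56% of all 32851 windows. In Lep the letters read as a full palindrome 55 bases before the start, shown here in capitals with its surroundings (chr6:29060155-29060184, plus strand).

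Lep: tggccggacagTTGCGCAAgtggcactggg

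AGGTCA, the half-site of nuclear receptors, was found in windows of Pparg alone (2 of the 11 windows, 14.0% of all windows). Its direct repeat spaced by 1 base, which contains the half-site, was in none of the 11 (0.0335% of all windows). TATAAA was found in Pparg alone (1 of 11, 12.4% of all windows), and CCAAT in Adipoq, Plin4 and Pparg (4 of 11, 33.8%). The letters describe these windows. Cidec and Pparg have more than 1 window, and no share by gene was computed over all genes.

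Of 16 further adipocyte markers, 0 were called in any comparison, where 4.15%, 1.15% and 2.71% of all genes tested were. With shares this low, a count of 0 does not set this list or the short lists below apart. Median changes were -0.57, -0.78 and 0.14 in the 3 comparisons, close to those of the members. Only Angptl4 passed an adjusted p alone, falling by 0.87 in Ptgs-/- against Ptgs+/+ tumors (adjusted p = 0.012 by edgeR), where 23.1% of all genes passed. ANGPTL4 inhibits lipoprotein lipase and is also made by cells short of oxygen. Car3, a carbonic anhydrase abundant in fat, stood between 201 CPM in Ptgs-/- replicate 1 and 2657 CPM in the third tumor of NK cell-depleted mice, with r = 0.98 with Adipoq. Of the lipoprotein lipase partners, the receptor gene Vldlr rose by 1.24 in Ptgs-/- tumors (SE 0.21, adjusted p = 0.0018 by edgeR) and by 1.08 after NK cell depletion (SE 0.21, adjusted p = 0.0064), both against Ptgs+/+ tumors, without reaching the fold threshold. Gpihbp1, the endothelial anchor of the enzyme, was 0.60 lower in Ptgs-/- tumors (adjusted p = 0.28 by edgeR). Genes named here for an adjusted p alone, and Gpihbp1, were chosen after their values were seen.

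Among genes of droplets and lipolysis, 11 of 13 were tested and 0 called, beside 4.15%, 1.15% and 2.71% of all genes in the 3 comparisons. Plin3, a perilipin of many cell types, rose by 0.31 in Ptgs-/- tumors (adjusted p = 0.029 by edgeR). Plin2 and Hilpda, the most abundant of the list and made by most cells under lipid load, ranged from 234 to 335 CPM and from 179 to 350 CPM, far narrower than Plin1. The lipase genes Lipe (23.3 to 190 CPM) and Pnpla2 (33.4 to 188 CPM) were lowest in Ptgs-/- replicate 1 and highest in Ptgs+/+ replicate 3, as Adipoq was.

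Of 15 genes of fatty acid uptake and synthesis, 0 were called, beside 4.15%, 1.15% and 2.71% of all genes in the 3 comparisons. Fabp5, the carrier of skin and macrophages, fell by 0.76 in Ptgs-/- against Ptgs+/+ tumors (adjusted p = 0.0072 by edgeR). Fasn, the fatty acid synthase gene, stood at 176, 294, 272 and 785 CPM in Ptgs+/+ tumors, 94.7, 188 and 785 CPM in Ptgs-/- tumors, and 628, 227 and 414 CPM after NK cell depletion. Thus Ptgs+/+ replicate 3, at the top for Adipoq, stood with the low tumors for Fasn. Thrsp, a regulator of fat synthesis from the list of adipocyte markers, stood at 37.8 CPM in that tumor, against 152, 227 and 291 CPM in Ptgs+/+ replicate 4, Ptgs-/- replicate 3 and the first tumor of NK cell-depleted mice. Scd1, the stearoyl-CoA desaturase gene, ranged from 119 CPM in Ptgs-/- replicate 1 to 2222 CPM in Ptgs+/+ replicate 4, and in Ptgs+/+ replicate 3 it stood at 1179 CPM, above replicates 1 and 2, with r = 0.97 with Adipoq. For triglyceride assembly 6 of 7 genes were tested and 0 called, with Dgat2 between 5.03 and 84.4 CPM, Dgat1 between 50.5 and 101 CPM and Lpin2 higher by 0.56 in Ptgs-/- against Ptgs+/+ tumors (adjusted p = 0.011 by edgeR).

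Of 14 tested regulators of adipocyte formation, 0 were called, and in Ptgs-/- against Ptgs+/+ tumors 8 had a fitted change above 0 and 6 below. An adjusted p alone was passed by 4 of the 14, beside 23.1% of all genes tested, so this count does not set the list apart. Zfp423 (r = 0.87) and Nr1h3 (r = 0.75), chosen after their values were seen, had the highest r with Adipoq of this list. Without the 2 tumors farthest from the median of Adipoq, r was 0.80 for Zfp423 and 0.35 for Nr1h3. Against Ptgs+/+ tumors, Cebpd and Klf5, both active early in adipogenesis, fell in Ptgs-/- tumors by 0.83 each (adjusted p = 0.010 and 0.0099 by edgeR) and after NK cell depletion by 0.81 and 0.65 (adjusted p = 0.018 and 0.046). Ebf2 rose by 1.04 in Ptgs-/- tumors (adjusted p = 0.029) and Klf4 by 0.47 (adjusted p = 0.026). Ncor1, a corepressor, stood at 189 to 250 CPM in all tumors. Of 9 tested adipokine receptors and other adipokines, Nampt rose by 0.36 in Ptgs-/- tumors (adjusted p = 0.030 by edgeR), 0 were called, and the adiponectin receptor gene Adipor2 stood at 174 to 288 CPM.

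Of 8 preadipocyte genes, 4 passed an adjusted p alone as higher in Ptgs-/- than in Ptgs+/+ tumors (12.1% of all genes did), and 1 of them, Dpp4, was called. Dpp4, a marker of early fat progenitors in the fascia, stood at 16.5, 11.1, 13.8 and 17.2 CPM in Ptgs+/+ tumors, 42.5, 61.7 and 32.3 CPM in Ptgs-/- tumors, and 28.4, 27.1 and 31.3 CPM after NK cell depletion. Both Ptgs-/- groups were wholly above Ptgs+/+ tumors. Groups did not overlap for 30.6% of all genes tested in Ptgs-/- against Ptgs+/+ tumors. In NK cell-depleted against Ptgs+/+ tumors this share was 27.1%. Dpp4 was called in Ptgs-/- against Ptgs+/+ tumors, at 1.58 higher (SE 0.21, adjusted p = 0.00051 by edgeR). It was 0.95 higher in NK cell-depleted against Ptgs+/+ tumors (adjusted p = 0.013 by edgeR). Within Ptgs-/- tumors, Dpp4 was 0.63 higher with NK cells than without and did not pass (adjusted p = 0.28 by edgeR). Pi16, Cd34 and Ly6a were higher by 0.83, 1.09 and 0.97 in Ptgs-/- than in Ptgs+/+ tumors. They did not pass in NK cell-depleted against Ptgs+/+ tumors. Pdgfra (0.38), Dlk1 (0.59), F3 (0.0062) and Fmo2 (-0.83) did not pass in Ptgs-/- against Ptgs+/+ tumors. Cd34 and Ly6a are made by fibroblasts and endothelium too, and T cells and dendritic cells carry DPP4 or LY6A, so the list is not particular to preadipocytes, and the part of those cells was not tested.

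Ucp1, the uncoupling protein of brown fat, was at or below 0.523 CPM in every tumor, and 3 of 8 genes of the brown fat list were tested. Cox7a1 and Cox8b were called higher after NK cell depletion than in Ptgs+/+ tumors, by 2.09 (adjusted p = 0.0015 by edgeR) and 2.35 (adjusted p = 0.042). In that comparison 2.71% of all genes tested were called in either direction. Neither gene passed an adjusted p in Ptgs-/- against Ptgs+/+ tumors or between Ptgs-/- tumors with and without NK cells. Both encode cytochrome oxidase subunits of muscle as well as of brown fat, and the part of muscle in their values was not tested.

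Some markers of other tissues went with Adipoq across the 10 tumors, among them the endothelial genes Cldn5 (r = 0.83), Emcn (0.69) and Pecam1 (0.67) and the keratinocyte genes Krt15 (0.79) and Krt14 (0.73). Without the 2 tumors farthest from the median of Adipoq, r was 0.45, 0.32, 0.26, 0.20 and 0.46 in the same order. Krt10, the most abundant gene of the keratinocyte list, went the other way, at -0.39 over all tumors and -0.36 without those 2. In Ptgs-/- replicate 1, where 3 counts correspond to 0.368 CPM, several of these genes were near that floor. Cldn5 stood at 0.368, Krt15 at 0.491, Krt14 at 0.613 and Krt5 at 0.123 CPM there, against 7.24 for Emcn and 34.7 for Pecam1. Of 8 endothelial genes, 0 were called, beside 4.15%, 1.15% and 2.71% of all genes in the 3 comparisons. Pecam1, Cdh5, Tie1 and Esam fell by 0.95 to 1.21 in Ptgs-/- against Ptgs+/+ tumors at an adjusted p alone (11% of all genes passed as lower). Endothelium also makes Fabp4 and Cd36, and its part in the Fabp4 values was not tested. Of 6 tested neutrophil genes 4 were called lower in Ptgs-/- than in Ptgs+/+ tumors, Mmp9 and S100a8 among them, where 4.15% of all genes tested were called in either direction. Csf3r (0.61) and Retnlg (0.28) did not pass. Retnlg was called higher after NK cell depletion than in Ptgs+/+ tumors, by 1.77 (adjusted p = 0.014 by edgeR). Keratinocyte genes summed to 19.8 to 32.5 CPM, with Krt1 at or near 0 throughout and Krt5 called lower in Ptgs-/- tumors (3.33 against 0.937 CPM on average). Of the 5 tested keratinocyte genes, Krt10 alone had a fitted change above 0 in Ptgs-/- against Ptgs+/+ tumors (0.44, adjusted p = 0.25 by edgeR). Of the sebaceous gland list, Mc5r and Awat1 were at 0 in every tumor and 1 of 7 genes, Soat1, was tested, with 0 called. Of 7 melanocytic genes 2 were tested, with 0 called.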

How the data were processed

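RNA of 10 whole tumors was read from the 3′ ends of transcripts (QuantSeq). After read trimming and STAR alignment to GRCm38, the authors deposited unnormalized counts per Ensembl gene, made with featureCounts. The submitters' processing notes also name bcl2fastq and edgeR, and versions and the strand setting are not given in the sources used here. Library totals were 8150556 to 12839174 counts, so that 3 counts, taken as the floor, correspond to 0.234 to 0.368 CPM, for counting error only. Names and coordinates came from GENCODE M21, which named 45143 of 45706 gene IDs, and promoter windows from RefSeq.

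Groups were taken from the labels. Counts were scaled by TMM, filtered with filterByExpr (14550 genes kept) and tested with edgeR 4.0.16 (R 4.3.3) by the quasi-likelihood F test, all 10 libraries in 1 model, with Benjamini-Hochberg adjustment over all genes. Called genes had an adjusted p of 0.05 or less and a log2 fold change of 1.5 or more in either direction, the thresholds of the study's methods. CPM in the text are scaled by library totals alone, and correlations use log2(CPM + 1). Intervals are 95% intervals. Within each group the libraries differed beyond sampling noise (chi-square per degree of freedom 8.06 to 33.2), and each was kept as 1 replicate. The labels name separate tumors and no more, so p-values measure only the spread between these tumors. On simulated counts for Ptgs-/- against Ptgs+/+ tumors (14332 genes), 178 of 200 genes changed by 2 on the log2 scale (89%) were called, with 1 unchanged gene called. Those 200 genes were drawn at random from all genes. The members spread more (median SD within groups 1.23, against 0.22 over all genes tested), so the 89% is not a rate for the members.

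The members and gene lists were chosen with earlier results of these data known. All members are named, and of each other list the called genes (up to 6) and the 2 with the highest mean CPM, with exceptions said in the text. Alternatives were DESeq2 1.42.0, other scalings, filters and tests, the code as a term, tumors of 1 code, a replicate block and leaving out each tumor. The fit with the level of 6 fat genes as a term was added after seeing the data.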

Additional observations from a re-analysis of the deposited data

Results flagged for a closer look

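Fabp4 in Ptgs+/+ replicate 4, at 4077 CPM, stood far from the other Ptgs+/+ tumors, at 683 to 834 CPM. The gap to the nearest tumor was 0.956 of the group's range, above Dixon's 95% critical value for groups of 4, which a share of groups passes by chance alone. No other member was marked in this way in Ptgs+/+ tumors, and groups of 3 were not examined.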

How the results depend on the processing

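None of the 630 member values under 21 other settings passed both thresholds, and 4 passed an adjusted p alone, all in NK cell-depleted against Ptgs+/+ tumors: Lpl without a filter on low counts (0.91, adjusted p = 0.019 by edgeR) and without Ptgs+/+ replicate 4 (1.18, adjusted p = 0.0499), and Pparg without that tumor (1.37, adjusted p = 0.039) and among EB046 tumors (1.38, adjusted p = 0.043). The medians of the 10 genes moved by less than the SD between tumors of a group (1.17). That SD is larger than each median of the main fit (-0.57, -0.79 and 0.20), so staying within it says little. Leaving out each tumor, the medians ranged from -1.58 to -0.06, from -1.83 to -0.32 and from -0.078 to 0.67 in the 3 comparisons. DESeq2, other scaling factors, filters and tests turned no direction.

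Directions turned in the following cases, and the cause was not tested. In NK cell-depleted against Ptgs+/+ tumors, the code as a term gave Plin4 0.083, Cidec 0.13 and Cfd 0.28, and EB046 tumors alone gave Plin4 0.014 and Cfd 0.20. In Ptgs-/- against Ptgs+/+ tumors, EB046 tumors alone gave Pparg 0.31. With the fat level and the code as terms, Pparg was at -0.037 in Ptgs-/- and Fabp4 at 0.49 in NK cell-depleted against Ptgs+/+ tumors, and Lpl at 1.07 and 0.84 (adjusted p = 0.027 and 0.087 by edgeR).

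With replicate numbers as a block, the medians were -0.90, -1.30 and 0.49, 0 genes were called, and Cidec (0.26) and Cfd (0.33) turned in NK cell-depleted against Ptgs+/+ tumors. Same-numbered tumors did not all deviate together (2 of 4, 2 of 4 and 0 of 3 pairs over 0.1, with r from -0.23 to 0.40, from -0.30 to 0.18 and from 0.00 to 0.09 in the 3 pairs of groups), so the numbers were not taken as pairs.

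Leaving out each tumor in turn, values of NK cell-depleted against Ptgs+/+ tumors ranged from -0.065 to 0.50 for Adipoq, -0.13 to 1.17 for Fabp4, -0.092 to 0.52 for Plin1, -0.51 to 0.032 for Plin4, -0.45 to 0.32 for Cidec, -0.39 to 0.30 for Cfd and -0.050 to 0.81 for Retn. Those of Ptgs-/- against Ptgs+/+ tumors ranged from -1.86 to 0.021 for Fabp4, -1.77 to 0.11 for Plin1, -0.88 to 0.027 for Lep and -0.41 to 0.54 for Pparg. With the fat level as a term, Fabp4 ranged from -0.37 to 0.47 in NK cell-depleted against Ptgs+/+ tumors, and Pparg from -0.57 to 0.022 in Ptgs-/- against NK cell-depleted and from -0.031 to 0.60 in Ptgs-/- against Ptgs+/+ tumors. The lowest count of any member was 23, and the share of depth and of spread between tumors in the width of the intervals was not tested.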
